A study of Mus musculus with 24 samples.

Results

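Wild-type (WT) mouse embryonic fibroblasts carried in culture to day 42 (passage 14) were compared with WT fibroblasts at day 36 (passage 12). Mouse embryonic fibroblasts are primary cells grown out of dissociated embryos, and here they were of the strain labelled C57B1/6 and kept under 20% oxygen. The series also holds WT cells at day 33 (passage 11) and cells with a knockout of cGAS (KO), the cytosolic DNA sensor encoded by Mb21d1, at the same days, passages and oxygen level. The labels do not say how many embryos or separate cultures stand behind a group. Genes were taken into the comparison where they reached 5 CPM (counts per 1000000 counts of the scaled library total) in either WT library, which gave 11949 of the 45706 genes in the table, against 28938 genes with a count in any library. Within these, a gene is called higher or lower where its log2 CPM differed at least 2-fold.

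Fibroblasts build the extracellular matrix, the network of collagens and proteoglycans outside the cell, and they signal to their neighbours through Wnt, BMP, FGF and IGF proteins. Serial passage in atmospheric oxygen brings primary mouse fibroblasts to senescence, a lasting growth arrest with secretion of proteases and cytokines, and outgrowth of cells that escape the arrest is well known in such cultures. Immediate early genes such as Fos and Egr1 are switched on within minutes of serum, stretch or stress and need no new protein synthesis.

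The 4 numbered samples of each group agreed within sampling noise, with a mean chi-square per degree of freedom of 0.832 to 0.843 inside groups, and were summed and counted as 1 library. There was therefore n = 1 library per day, the difference between days has no replicate check, and no p-value is given. The library totals were 47092611 counts for day 36 and 35025184 for day 42, and the intervals below are exact 95% counting intervals of a ratio of CPM, which cover counting error only. The targeted gene Mb21d1 had 4.1 CPM on day 36 and 4.79 CPM on day 42 in WT, against 0 and 0.126 CPM in KO. Of 14 listed fibroblast markers all reached 5 CPM on day 42, and on day 36 all but Lum (0.991 CPM) and Fap (3.69 CPM) did. Their summed level was 62015 CPM on day 36 and 61744 CPM on day 42.

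From day 36 to day 42 the WT cells carried less RNA of the immediate early genes and of the mitochondrially encoded genes, and more RNA of small matrix proteoglycans, of Wnt antagonists and receptors, of the imprinted growth factor Igf2 and of complement genes. The AP-1 subunit Fosb was 75-fold lower and Fos 21.1-fold lower on day 42, while the imprinted gene Mest was 34.6-fold and the neuropeptide precursor Penk 31.1-fold higher. Genes of cell division and DNA replication, and the arrest gene Cdkn2a, stayed within 2-fold. In bulk RNA fewer cells of a type and less RNA per cell cannot be told apart. A gene that is low on one day passes the 5 CPM minimum only through the other, so counts over tested members of a list are descriptions.

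Of the 11949 genes, 510 were at least 2-fold higher on day 42 (4.27%) and 308 were at least 2-fold lower (2.58%), together 6.85%. At 4-fold or more there were 135 higher and 41 lower genes, and at 8-fold or more 38 and 9. Most genes differed little, and 9758 (81.7%) lay within 1.5-fold. The median absolute log2 difference was 0.27, against 0.10 for the same genes between days 33 and 36, which share the day 36 library. The higher genes started low: their median level was 5.89 CPM on day 36 and 19 CPM on day 42, and it had been 8.86 CPM on day 33. Both steps share the day 36 library, whose own deviations enter them with opposite signs. The lower genes had medians of 33.0, 36.7 and 13.4 CPM on days 33, 36 and 42. Lower calls were the more frequent ones among the most abundant genes. Of 124 genes that reached 1000 CPM on either day 20 were lower and 6 higher. The 20 include mitochondrially encoded genes such as mt-Nd5, mt-Nd2 and mt-Cytb. Of 2253 genes that reached 100 but not 1000 CPM, 79 were lower and 68 higher. Of 1781 genes that reached 5 but not 10 CPM, 136 were higher and 55 lower. Without the TMM scaling factors the counts were 637 higher and 242 lower, so that 72.5% in place of 62.3% of the called genes were higher, and the median of all genes moved from -0.03 to 0.09.

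**Figure D1:**
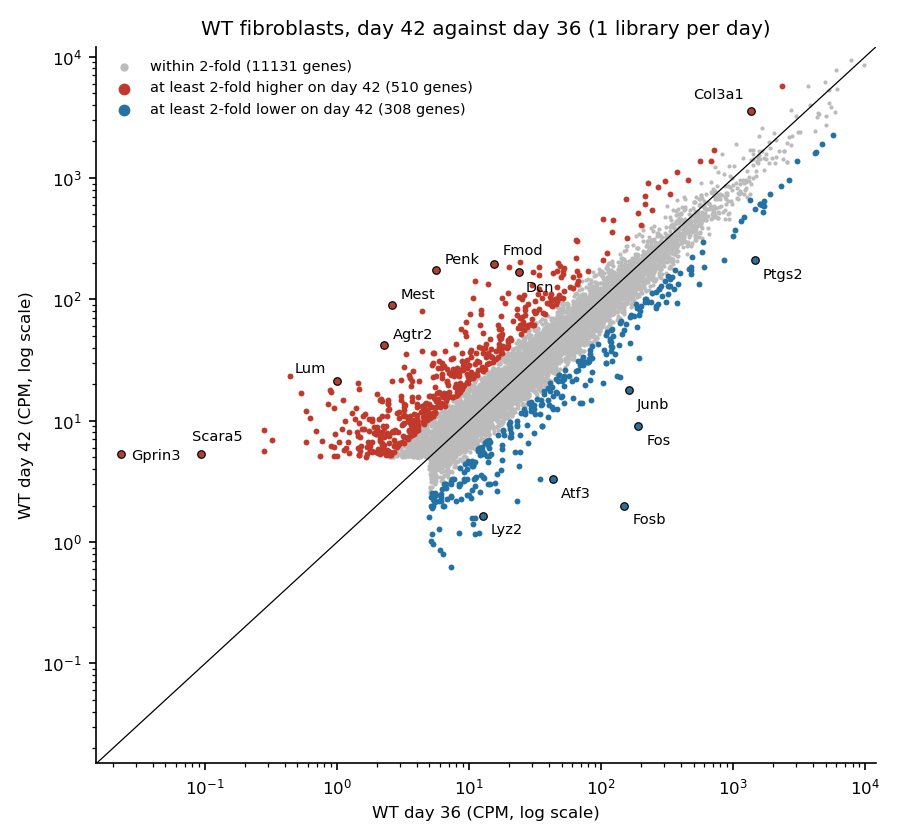
Level of each of the 11949 genes in the WT library of day 36 (horizontal axis) and day 42 (vertical axis), both in CPM on log scales, with 1 library per day. The 510 genes at least 2-fold higher on day 42 (red) lie mostly at low day 36 levels, and Fosb, Fos, Junb and Ptgs2 stand farthest below the diagonal among the genes above 100 CPM on day 36.

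Transcript length moved with the difference. In the 2989 genes with the shortest lengths (66 to 2077 bases in the table) the median log2 difference was -0.16, with 55 genes higher and 123 lower. In the 2987 longest genes (5908 to 41328 bases) it was 0.05, with 184 higher and 55 lower. With this trend subtracted, 525 genes were higher and 289 lower, and the medians of all 48 gene lists with a tested member kept their sign.

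The immediate early genes held the most lower members of the 49 lists. Of 27 tested members 21 were lower on day 42 and 0 higher, against 2.58% lower over all genes. Their median log2 difference was -1.50. For day 36 against day 33, which uses the same day 36 library, the median of the list was 0.34. Fosb (chromosome 7, 19302696 to 19310051) was at 55.7, 149.7 and 2.0 CPM on days 33, 36 and 42, which is 75-fold lower on day 42 than on day 36 (59.3 to 96.4). Fos (chromosome 12, 85473890 to 85477273), the best known AP-1 subunit, was at 151, 191 and 9.04 CPM, 21.1-fold lower (18.9 to 23.7). Junb (chromosome 8, 84974484 to 84978718), a partner of Fos in AP-1, was at 103, 161 and 17.9 CPM, 9.0-fold lower (8.29 to 9.78). All 3 AP-1 genes were higher on day 36 than on day 33 and lowest on day 42.

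Other regulators of the same class were lowest on day 42 as well. Atf3, a stress-induced transcription factor, was at 11, 43.1 and 3.31 CPM, and Egr1, a zinc finger factor, at 255, 307 and 95.1 CPM. Atf3 was 13-fold lower on day 42 than on day 36 (10.8 to 15.9) and Egr1 3.23-fold (3.11 to 3.35). Myc, which drives growth and ribosome production, was at 96.3, 85.8 and 41.1 CPM, close to the threshold at 2.09-fold lower. Among members named after their values were seen, Zfp36, which marks AU-rich messages for decay, was at 138 and 23 CPM on days 36 and 42. The nuclear receptor Nr4a1 was at 194 and 32.7 CPM, the ERK phosphatase Dusp5 at 102 and 20.5 CPM, and Egr2, a relative of Egr1, at 20.8 and 7.33 CPM. Each of these 4 was at its highest WT level on day 36 and its lowest on day 42.

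Serum response factor drives many immediate early genes through the CArG box. In the RefSeq promoter windows (GRCm38.p6, 250 bases before to 50 after the start), 1.63% of all 32851 windows hold a CArG box on either strand. Counted by gene, with a match in any window, 1.73% of 8153 tested genes with a window hold one. Of 23 immediate early genes with a window 3 do (Zfp36, Dusp5 and Egr2). The absence of these letters in the other windows says nothing about the factor. The 250 bases before the start of these 3 genes are shown with the CArG boxes in capitals, because they carry the element by which this class is best known. The stretches are Zfp36 at chr7:28379229-28379478 (minus strand), Dusp5 at chr19:53528895-53529144 (plus strand) and Egr2 at chr10:67537316-67537565 (plus strand). In Dusp5 2 boxes lie side by side.
Zfp36: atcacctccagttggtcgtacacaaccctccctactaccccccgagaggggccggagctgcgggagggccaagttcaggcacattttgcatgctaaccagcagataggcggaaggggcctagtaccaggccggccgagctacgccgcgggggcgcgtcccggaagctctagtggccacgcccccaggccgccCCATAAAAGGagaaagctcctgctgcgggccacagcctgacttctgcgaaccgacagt
Dusp5: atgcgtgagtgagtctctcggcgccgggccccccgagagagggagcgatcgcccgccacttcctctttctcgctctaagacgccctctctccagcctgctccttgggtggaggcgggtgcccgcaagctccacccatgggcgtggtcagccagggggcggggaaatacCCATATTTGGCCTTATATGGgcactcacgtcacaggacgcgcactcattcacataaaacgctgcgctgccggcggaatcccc
Egr2: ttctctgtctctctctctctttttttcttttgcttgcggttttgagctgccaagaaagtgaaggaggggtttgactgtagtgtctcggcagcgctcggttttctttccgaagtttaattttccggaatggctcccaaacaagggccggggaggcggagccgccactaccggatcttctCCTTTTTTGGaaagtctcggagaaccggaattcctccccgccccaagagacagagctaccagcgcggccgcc
The boxes of Zfp36 and Egr2 begin 58 and 72 bases before the start, and the first of Dusp5 82 bases before it. The levels of these 3 genes on day 42 were 5.98-fold, 5.0-fold and 2.84-fold below those of day 36.

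Other abundant genes were lower on day 42, named here one by one and not as a group. Ptgs2 (chromosome 1, 150100031 to 150108227), the inducible prostaglandin synthase also counted among the immediate early genes, was at 764, 1448 and 209 CPM, 6.92-fold lower on day 42 than on day 36 (6.76 to 7.09). F3 (chromosome 3, 121723537 to 121735048), tissue factor, the trigger of coagulation, was at 519.6, 849 and 213 CPM, 3.99-fold lower (3.89 to 4.09). Ankrd1, a target of the mechanosensitive YAP coactivator, was at 348, 548 and 134 CPM, 4.09-fold lower (3.96 to 4.22). Of 21 tested targets of YAP and TEAD, F3 and Ankrd1 were lower and Igfbp3 was higher, against 2.58% and 4.27% over all genes. The median of these 21 genes was -0.35. Of the plasminogen system, the receptor Plaur was at 118 and 41.2 CPM and the inhibitor Serpinb2 at 11.1 and 1.17 CPM. A pair of abundant adhesion receptors named after their values were seen, the fibronectin receptor chain Itga5 and the hyaluronan receptor Cd44, were 2.74-fold (2.7 to 2.78) and 2.6-fold (2.57 to 2.64) lower, whereas the adhesion genes Itga11 and Icam1 were higher.

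Genes tied to senescence were lower or level in one list and split in another. Of 19 tested members of the list of senescence genes and cell cycle inhibitors, 4 were lower and 0 higher, against 2.58% and 4.27% over all genes. The list's median was -0.26. The lower ones included the transcriptional repressor Bhlhe40 (136 to 42.2 CPM) and the chromatin proteins Hmga1 (261 to 88.1 CPM) and Hmga2 (345 to 154 CPM). The inhibitors of the cell cycle themselves were within 2-fold. Cdkn2a, the gene of p16Ink4a and p19Arf (chromosome 4, 89274471 to 89294653), was at 110.4, 101 and 84.4 CPM on days 33, 36 and 42. Cdkn2b, which encodes p15Ink4b, was at 62, 55.8 and 59.4 CPM, and Cdkn1a, which encodes p21, at 589, 595 and 498 CPM. Lmnb1, the nuclear lamin that senescent cells lose, was at 45.3 and 36.8 CPM on days 36 and 42. Of 30 secreted factors of senescence, 4 were higher and 7 lower, against 4.27% and 2.58% over all genes, and the median was -0.15. The protease gene Mmp3 was 7.57-fold higher (5.73 to 10.1, 59 counts on day 36 and 361 on day 42) and Mmp9 4.49-fold lower (3.54 to 5.76). The chemokine Cxcl5 was 4.29-fold higher (3.59 to 5.16), whereas Cxcl1, from the same family, was 2.46-fold lower (1.93 to 3.17). On days 33, 36 and 42 Cxcl5 was at 27.2, 3.66 and 15.7 CPM and Mmp3 at 6.6, 1.36 and 10.3 CPM. The day 42 level of Cxcl5 was thus below that of day 33. Il6, below the 5 CPM minimum, was at 4.38 and 2.94 CPM, and the monocyte chemokine Ccl2 at 86.8 and 91 CPM.

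Proliferation genes were nearly level. None of 40 cell division genes was called, against 6.85% of all genes. Their differences ran from -0.68 to 0.39 and their median was 0.02. Mki67, a protein of cycling nuclei, was at 149, 161 and 140.3 CPM, and Mybl2, which had the largest difference of the list, at 11.3 and 7.04 CPM on days 36 and 42. The 28 tested genes of DNA replication and nucleotide supply had a median of -0.14 and the 26 of repair and checkpoints 0.12. Both lists also held 0 called genes, against the same 6.85%. Of 33 p53 targets 2 were higher and 4 lower, against 4.27% and 2.58% over all genes, and the median was -0.19. Pmaip1, a death-promoting BCL-2 relative, was at 149.9 and 56.4 CPM, Sesn1, a restraint on mTORC1, at 11.7 and 26.1 CPM, and Mdm2, which degrades p53, at 379 and 228 CPM. Trp53 itself was at 70.03 and 61 CPM.

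**Figure D2:**
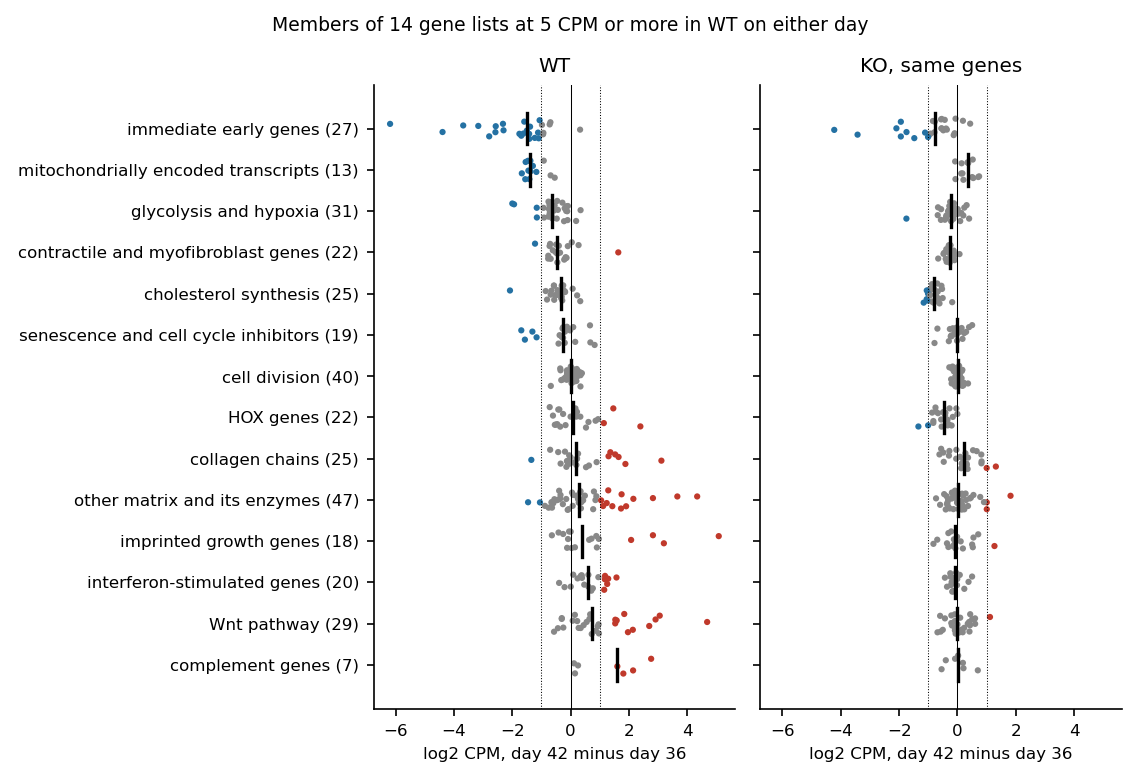
Difference in log2 CPM between day 42 and day 36 for the tested members of 14 gene lists, in WT (left) and for the same genes in KO (right), 1 library per day and genotype; the KO panel keeps genes below 5 CPM in KO. Points are genes, with red and blue for at least 2-fold higher and lower, bars are list medians, dotted lines mark 2-fold, and the number of members is in parentheses. Immediate early genes have a WT median of -1.50 and complement genes one of 1.6.

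The 13 protein-coding genes of mitochondrial DNA encode subunits of the respiratory chain and ATP synthase. All 13 were lower on day 42, 10 of them at least 2-fold, against 2.58% over all genes, with a median of -1.38. Their summed level was 19483, 25317 and 10739 CPM on days 33, 36 and 42. Among them mt-Nd5, a subunit of complex I, was at 1676 and 526 CPM, and mt-Cytb, of complex III, at 2665 and 967 CPM. The strand setting of the counts is not given in the sources used here, so mt-Nd6, which overlaps mt-Nd5 on the other strand, cannot be fully told apart from it. Nuclear copies of mitochondrial DNA can share these reads. The unprocessed pseudogene Gm13340 (chromosome 2, 22588103 to 22589647), named after its values were seen, was at 4182 and 1613 CPM, 2.59-fold lower. The nuclear genes of the respiratory chain held 0 called members of 36, against 6.85% of all genes, with a median of -0.13.

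Glycolysis and hypoxia genes lay mostly below 0, with 29 of 31 members there. Their median was -0.62, against -0.03 over all genes. By at least 2-fold 4 of them were lower and 0 higher, against 2.58% and 4.27% over all genes. Slc16a3, the lactate exporter, was at 33.3, 30.7 and 7.98 CPM on days 33, 36 and 42. The oxygen sensor gene Egln3 was at 9.95 and 2.45 CPM on days 36 and 42, and Hk2, which commits glucose to glycolysis, at 95.1 and 42.6 CPM. Vegfa, the angiogenic factor, was at 149.9 and 78.7 CPM and within 2-fold. The metallothioneins Mt1 and Mt2, small proteins that bind zinc, were 3.17-fold (2.89 to 3.49) and 3.02-fold (2.59 to 3.55) lower. Hmox1, the haem-degrading enzyme, was the only gene of 30 NRF2 targets called lower, at 284 and 128 CPM, against 2.58% over all genes. Of 25 sterol genes 22 lay below 0, with a median of -0.32, and 1 was called lower, against 2.58% over all genes. Ppp1r15a, which ends the block of translation in stress, was at 166 and 43.5 CPM. It was the only called gene of 31 in the unfolded protein and integrated stress responses, against 6.85% over all genes.

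Contractile genes, the actin and myosin machinery of myofibroblasts, lay mostly below 0, with 19 of 22 members there. Their median was -0.45, against -0.03 over all genes. Of the 22, 1 was called higher and 1 lower, against 4.27% and 2.58% over all genes. Acta2, smooth muscle actin, was at 4173, 5507 and 3859 CPM, and Srf, the factor that binds the CArG box, at 101, 111 and 67.2 CPM. Tagln2, an actin-binding protein, was the only one lower by 2-fold (576 and 247 CPM). Itga11, a collagen receptor of myofibroblasts, went the other way and was 3.11-fold higher (3.05 to 3.17).

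Several matrix genes were higher on day 42. Of 47 matrix proteins other than collagens, 12 were higher and 2 lower, against 4.27% and 2.58% over all genes, with a median of 0.28. The small leucine-rich proteoglycans, which coat collagen fibrils and set their thickness, had the largest differences. Lum (lumican, chromosome 10, 97565128 to 97572703) was at 8.29, 0.991 and 21.1 CPM, from 43 counts on day 36 to 742 on day 42, 21.3-fold higher (15.7 to 29.7). Fmod (fibromodulin, chromosome 1, 134037254 to 134048277) was at 28, 15.4 and 196 CPM, 12.7-fold higher (11.7 to 13.8). Dcn (decorin, chromosome 10, 97479609 to 97518143) was at 73.3, 23.8 and 169 CPM, 7.1-fold higher (6.65 to 7.6). Ogn (osteoglycin) was at 174, 104 and 462 CPM, 4.45-fold higher (4.31 to 4.6). All 4 were lower on day 36 than on day 33 and highest on day 42. Per length of transcript, in the authors' RPKM, the day 42 levels were 99.2 for Ogn, 44.2 for Dcn, 32.5 for Fmod and 5.57 for Lum. Eln, the elastic fibre protein elastin, was at 16.4, 16.5 and 61.8 CPM. Spp1 (osteopontin), an acidic matrix protein named after its values were seen, was at 4115, 2332 and 5716 CPM, 2.45-fold higher than on day 36.

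**Figure D3:**
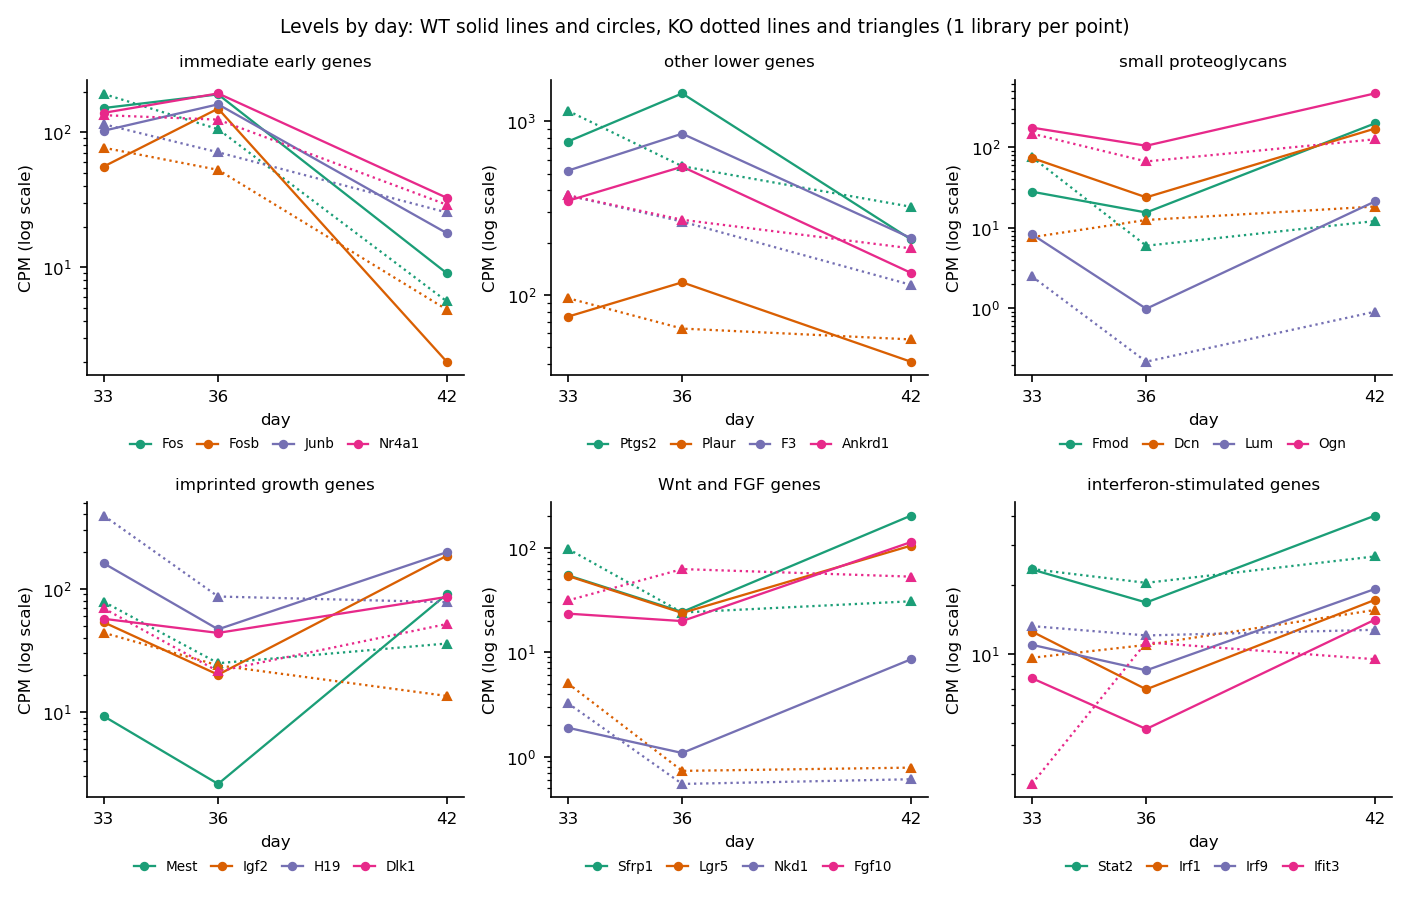
Levels in CPM (log scale) of 24 genes on days 33, 36 and 42 in WT (solid lines, circles) and KO (dotted lines, triangles), each point 1 library. In WT the immediate early genes peak on day 36 and the proteoglycans, imprinted genes and interferon-stimulated genes have their lowest level there in the same library that both steps share. Fosb ends at 2.0 CPM in WT and 4.86 in KO.

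Of 25 collagen chains 6 were higher and 1 lower, against 4.27% and 2.58% over all genes, with a median of 0.20. Col3a1 (chromosome 1, 45311538 to 45349706), the main chain of reticular fibres, was at 2151, 1371 and 3531 CPM, 2.58-fold higher than on day 36 (2.55 to 2.6). Col1a1, the most familiar fibroblast collagen, was at 9263, 9799.9 and 8584 CPM and within 2-fold. Col15a1, a basement membrane collagen, went from 1.29 to 11.6 CPM, Col10a1, known from growth cartilage, from 46 to 169.5 CPM, and Col6a2, of the beaded microfibrils, from 269.5 to 844 CPM. Of 17 metalloproteinases and their inhibitors, Mmp3, Adamts2 and Adamts9 were higher and Mmp9 was lower, against 4.27% and 2.58% over all genes. Of the 17, 14 lay above 0 and the median was 0.54. Adamts2, which trims procollagen, was at 27.8 and 90.8 CPM.

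Wnt signalling works through secreted ligands, Frizzled receptors and secreted antagonists, and 10 of its 29 tested genes were higher and 0 lower, against 4.27% and 2.58% over all genes, with a median of 0.73. Among the antagonists, Sfrp1 (chromosome 8, 23411502 to 23449632) was at 54.4, 24.2 and 202 CPM, 8.35-fold higher than on day 36 (7.82 to 8.92). Sfrp2, its close relative, was at 0.825, 0.277 and 8.44 CPM, on 12 and 296 counts for days 36 and 42, 30.5-fold higher (17.2 to 59.7). Nkd1, an inhibitor inside the cell that Wnt itself induces, was 7.87-fold higher (5.77 to 10.9). Lgr5, the R-spondin receptor and stem cell marker, was at 53.6, 23.7 and 104 CPM, and the ligand Wnt16 at 1.74, 0.899 and 6.13 CPM. Antagonists, a receptor and a ligand of the pathway were thus all among its higher genes.

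Some ligands of other growth factor families were higher too. Of 35 TGF-beta and BMP pathway genes 4 were higher and 2 lower, against 4.27% and 2.58% over all genes, with a median of 0.13. Bmp4 (chromosome 14, 46383520 to 46390669), a ligand, was at 21.5, 9.52 and 65.3 CPM, 6.86-fold higher (6.18 to 7.64), and its secreted antagonist Grem1 at 856, 709.6 and 1692 CPM, 2.38-fold higher (2.35 to 2.42). The receptor Bmpr1b was 2.43-fold lower (2.18 to 2.72). Of 14 tested FGF pathway genes 2 were higher and 1 lower, against 4.27% and 2.58% over all genes, with a median of 0.08. The ligand Fgf10 (chromosome 13, 118669791 to 118792115), which signals from mesenchyme to epithelium, was at 23.4, 19.8 and 113 CPM, 5.7-fold higher (5.29 to 6.14). Fgf18 was 5.37-fold higher (3.81 to 7.74), and Etv4, a transcription factor induced by FGF, was 2.33-fold lower (2.14 to 2.53). In the Hedgehog and Notch pathways 3 of 15 tested genes were higher and 1 lower, against the same shares, with a median of 0.47. The Hedgehog co-receptors Gas1 (14 and 133 CPM) and Cdon (33 and 111 CPM) and the receptor Notch3 (16.8 and 49.4 CPM) were higher. The Notch target Hes1 was lower at 116 and 46.9 CPM.

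Imprinted genes are expressed from 1 parental allele, and several control fetal growth. Of 18 tested, 4 were higher and 0 lower, against 4.27% and 2.58% over all genes, with a median of 0.39. The 4 were Mest, Igf2, H19 and the proteoglycan gene Dcn, which is also counted among the matrix genes above. Mest (chromosome 6, 30723547 to 30748465), a paternally expressed hydrolase, was at 9.23, 2.6 and 90.04 CPM, from 113 counts on day 36 to 3159 on day 42, 34.6-fold higher (28.7 to 42). Igf2 (chromosome 7, 142650766 to 142666816), the fetal growth factor, was at 53.4, 20.05 and 185 CPM, 9.22-fold higher (8.59 to 9.91). H19 (chromosome 7, 142575529 to 142578143), the noncoding RNA made from the neighbouring locus on the other parental allele, was at 161, 46.8 and 198 CPM, 4.22-fold higher (4.02 to 4.44). Dlk1, a Notch-like surface protein, was at 43.8 and 85.7 CPM, just inside 2-fold, and Dio3 of the same cluster, named after its values were seen, was at 1.11 and 14.7 CPM, 13.3-fold higher (9.86 to 18.2). In the IGF axis Igf1, the postnatal growth factor, was 4.44-fold higher (3.92 to 5.05) and the binding protein Igfbp3 2.72-fold higher (2.58 to 2.87), while Igfbp2 and Igfbp5 were within 2-fold, Igfbp2 at 330.1 and 477 CPM and Igfbp5 at 77.2 and 125 CPM.

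Innate immune genes of the fibroblast were higher in parts. All 7 complement genes that passed 5 CPM, of 16 listed, were above 0. Of these, 4 were at least 2-fold higher, against 4.27% over all genes. The median of the 7 was 1.6, against -0.03 over all genes. C1s1, a protease of the first complement component, was at 8.21, 6.15 and 27.4 CPM, and Serping1, the inhibitor of that protease, at 12.5, 6.8 and 20.8 CPM.

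Of 20 interferon-stimulated genes that passed 5 CPM, of 46 listed, 6 were higher and 0 lower, against 4.27% and 2.58% over all genes. Of these genes 18 lay above 0 and the median was 0.61. Between days 33 and 36 the median of the same genes was -0.36. Factors that carry the interferon signal to the nucleus were among the higher ones. Stat2 (chromosome 10, 128270559 to 128292849) was at 23.4, 16.8 and 40.2 CPM, 2.39-fold higher (2.19 to 2.62). Irf9, with which it acts in a complex, was at 11, 8.48 and 19.2 CPM, 2.27-fold higher. Ifit3 (chromosome 19, 34583531 to 34588731), an antiviral effector with a close copy in the genome, was at 7.84, 4.7 and 14.1 CPM, 3.0-fold higher (2.54 to 3.55). Isg15 and Cxcl10, strongly induced members, stayed below the 5 CPM minimum at 2.45 and 1.17 CPM on day 42, and Ifnb1, interferon beta itself, had 0 counts on both days. A count of 0 allows up to 0.0691 CPM on day 36 and 0.0855 CPM on day 42 (3 counts of each library).

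The interferon-stimulated response element was searched as GAAA, any 2 bases and GAAA again. It was found on either strand in 3.44% of all promoter windows. Counted by gene, with a match in any window, 3.45% of 8153 tested genes with a window held it. Of 18 interferon-stimulated genes with a window 10 did, among them Ifit3 and Stat2. The 250 bases before the start of these 2 (Ifit3 at chr19:34583279-34583528, plus strand, and Stat2 at chr10:128270248-128270497, plus strand) are shown because they hold it. Capitals mark the element, which reads TTTC, 2 bases and TTTC on the strand shown.
Ifit3: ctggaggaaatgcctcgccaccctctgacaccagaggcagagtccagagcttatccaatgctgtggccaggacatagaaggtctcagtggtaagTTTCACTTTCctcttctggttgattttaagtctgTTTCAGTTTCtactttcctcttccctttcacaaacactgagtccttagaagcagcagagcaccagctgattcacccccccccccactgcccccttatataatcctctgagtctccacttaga
Stat2: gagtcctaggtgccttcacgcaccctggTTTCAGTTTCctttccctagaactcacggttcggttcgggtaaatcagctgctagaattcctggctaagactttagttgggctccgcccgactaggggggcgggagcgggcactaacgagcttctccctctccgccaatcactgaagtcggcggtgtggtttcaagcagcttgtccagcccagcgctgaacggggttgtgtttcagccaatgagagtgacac
Ifit3 holds 2 such elements, the first 156 bases before the start, and Stat2 holds 1, at 222 bases before it. On day 36 the levels of Ifit3 and Stat2 were 4.7 and 16.8 CPM in WT and 11.2 and 20.4 CPM in KO. On day 42 they were 14.1 and 40.2 CPM in WT and 9.48 and 26.7 CPM in KO. For both genes WT was thus below KO on day 36 and above it on day 42. On day 33 Ifit3 was at 7.84 CPM in WT and 2.71 CPM in KO, and Stat2 at 23.4 and 23.5 CPM. The difference between genotypes was not tested.

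In the cGAS-STING pathway, which leads from cytosolic DNA to interferon, 1 of 17 tested genes was called. That is close to the 6.85% called over all genes. Enpp1, the enzyme that degrades cGAMP outside the cell, was at 26, 16.7 and 43.2 CPM, 2.58-fold higher than on day 36 (2.36 to 2.83). Tmem173, which encodes STING, was at 40.1, 32.7 and 21.2 CPM. Of 13 genes of NF-kB and its feedback 2 were lower and 1 higher, against 2.58% and 4.27% over all genes. Nfkbiz (51.8 and 14.1 CPM) and the deubiquitinase gene Tnfaip3 (29.6 and 12.7 CPM) were lower. The adhesion molecule Icam1 (4.77 and 11.1 CPM) was higher, after 11.4 CPM on day 33. The medians of the cGAS-STING and NF-kB lists, -0.04 and -0.08, turn to 0.08 and 0.04 without TMM factors, so neither list is given a direction.

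A few transcription factors that record body position were higher, while their lists as a whole were close to level. Of 22 tested HOX genes 3 were higher and 0 lower, against 4.27% and 2.58% over all genes, with a median of 0.08. Hoxd13 (chromosome 2, 74668310 to 74671599), the marker of the most distal limb, was at 22, 5.85 and 31 CPM, 5.3-fold higher than on day 36 (4.62 to 6.1). Hoxc8 was at 32.6, 17.1 and 47.3 CPM, and Hoxa7 at 10.3, 10.2 and 22.6 CPM. Of 34 other regional factors, 5 were higher and 2 lower, against the same shares, while 18 lay below 0 and the median was -0.12. Tfap2b, of neural crest and limb, had 37 counts on day 36 and 479 on day 42 (5.8, 0.853 and 13.7 CPM on the 3 days), 16-fold higher (11.5 to 23). Tbx4, of the hindlimb, was at 8.64, 3.23 and 12.3 CPM, and Msx1, of limb and face, at 3.3, 1.57 and 10.8 CPM. Hoxd13, Tfap2b, Tbx4 and Msx1 each had their lowest WT level on day 36. In retinoid handling the binding protein Crabp1 was 5.05-fold lower (4.59 to 5.56), while Aldh1a1, which makes retinoic acid, and Cyp26b1, which degrades it, were 5.77-fold and 3.27-fold higher.

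Genes with the largest differences include several outside these lists. Gprin3, a neuronal G protein interactor, had 1 count on day 36 and 186 on day 42, 230.1-fold higher with a wide interval (40.8 to 9136). Lrrtm3, a synaptic adhesion protein, was 53.2-fold higher (33.8 to 88.8), and Scara5, a ferritin receptor of fibroblasts, 58.1-fold (22.3 to 216). Penk (chromosome 4, 4133531 to 4138819), the precursor of enkephalins, was at 29.6, 5.62 and 175 CPM, 31.1-fold higher (27.4 to 35.5). Islr, a secreted leucine-rich protein, went from 4.38 to 80.1 CPM, and Serpina3n, a secreted protease inhibitor from a cluster of near copies, from 0.53 to 16.8 CPM. The 15 largest higher differences also held the angiotensin receptor Agtr2 (19.1, 2.28 and 42 CPM) and angiotensinogen, Agt (12 and 199 counts on days 36 and 42). Their list, renin-angiotensin and vascular tone, had 4 higher and 3 lower genes of 12 tested, against 4.27% and 2.58% over all genes. The list's median was -0.17. Its summed level was 1960.3 and 833 CPM, and most of the day 36 sum was Ptgs2. On the lower side stood the endocytic receptor Lrp2 (15.5, 34.1 and 3.28 CPM), the apolipoprotein genes Apob (6.31 and 0.798 CPM) and Apol8 (7.3 and 0.627 CPM), and Tnfrsf26, a TNF receptor family member with near copies (11.8 and 1.2 CPM).

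Markers of other cell types were checked as whole lists. Of 21 macrophage markers 2 passed 5 CPM, Lyz2 and Lyz1, the near-identical lysozyme genes whose reads may be split between them. Lyz2 was at 70.9, 12.7 and 1.65 CPM and Lyz1 at 62, 10.7 and 1.4 CPM. The summed level of the macrophage list was 244, 50 and 12.7 CPM on days 33, 36 and 42, and the defining markers Spi1 and Cx3cr1 had 0 counts on day 42. The lower genes Havcr2 (11 to 1.57 CPM) and C3ar1 (8.32 to 1.2 CPM), receptors known from myeloid cells, moved with these markers, and the part of macrophages in them was not tested. Of 10 endothelial markers only Kdr passed 5 CPM, at 13.2 and 11.1 CPM, and the list summed to 19.7 and 18.1 CPM. None of 12 mast cell and lymphocyte markers passed, and they summed to 0.622 and 0.713 CPM. Epithelial markers summed to 204 and 125 CPM. Of 5 tested, Krt19 and Dsp were lower and 0 higher, against 2.58% and 4.27% over all genes, with a median of -0.86. Skeletal muscle markers summed to 816 and 447 CPM, with all 3 tested below 0 and 1 of them called lower, against 2.58% over all genes. Of 6 tested mural cell markers 3 were higher and 2 lower, against 4.27% and 2.58% over all genes. Rgs5 was 5.03-fold higher (4.57 to 5.55) and Mcam 2.26-fold lower (2.19 to 2.34). Neural and glial markers summed to 651 and 362 CPM, with Map2 and Stmn2 higher and Nes lower of 5 tested, against the same shares. Of the fibroblast markers, Fap, Pdgfra, Lum, Dcn and Col3a1 were higher, against 4.27% over all genes, and the other 9 of 14 within 2-fold.

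**Figure D4:**
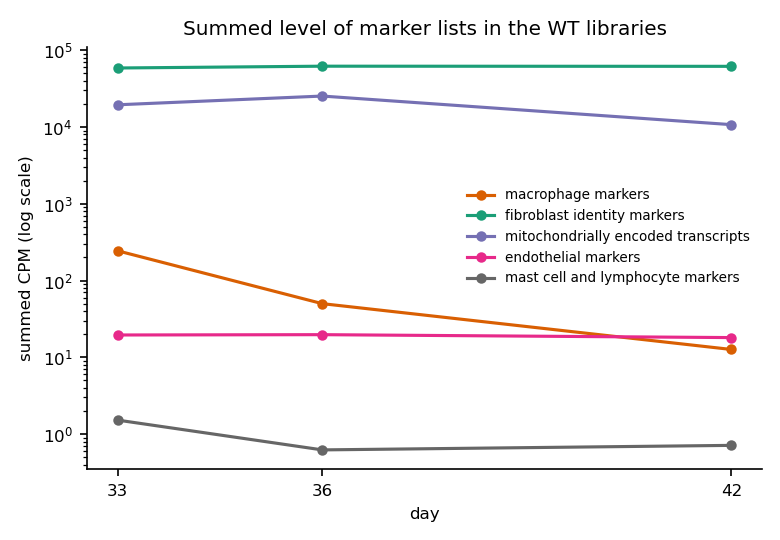
Summed level in CPM (log scale) of 5 gene lists in the WT libraries of days 33, 36 and 42, 1 library per day. The macrophage list goes from 244 to 12.7 CPM, while the fibroblast list stays between 58744 and 62015 CPM.

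The KO cells give the same pair of days without sharing a library with WT. There, 53 of 11584 genes were higher (0.458%) and 53 lower (0.458%) on day 42 than on day 36, together 0.915%, and the median absolute log2 difference was 0.14. Of the 510 genes higher in WT, 336 could be tested in KO and 27 were also higher there, which is 8.04% of these and 50.9% of the KO calls; none was lower in KO. Of the 308 genes lower in WT, 244 could be tested and 26 were also lower, which is 10.7% of these and 49.1% of the KO calls. The median KO difference was 0.31 for the 336 genes and -0.28 for the 244 genes, against 1.41 and -1.34 in WT. Only 1 gene, the pseudogene RP24-138J15.1, named after its values were seen, was lower in WT and higher in KO. The genes were chosen by their WT values, which fixes part of the gap between these medians. With 1 library per day and genotype the difference between genotypes was not tested, and the KO cells also had fewer Y-linked transcripts (Ddx3y at 167 and 122 CPM in WT and 44 and 38.2 CPM in KO).

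Immediate early genes were lower in KO too, 9 of 26 tested against 0.458% of all genes in KO, with a median of -0.67. On days 33, 36 and 42 the KO level of Fos was 192, 105 and 5.59 CPM, that of Fosb 76.8, 52.7 and 4.86 CPM, and that of Nr4a1 134, 124 and 29.1 CPM. The metallothioneins Mt1 (40.8 and 16.1 CPM) and Mt2 (10.4 and 3.03 CPM) and the Notch target Hes1 (81.2 and 35.5 CPM) were called lower in both genotypes. Fmod, Col8a2 and the BMP antagonist Chrdl1 were called higher in both. KO levels on days 33, 36 and 42 were 75.1, 5.99 and 12.1 CPM for Fmod. Col8a2 was at 26.3, 7.15 and 17.9 CPM and Chrdl1 at 0.812, 1.79 and 6.37 CPM in KO. In KO, Fmod and Col8a2 were thus lower on day 42 than on day 33. For other groups the KO values stood apart. The KO median over members that passed 5 CPM in KO was 0.00 for the Wnt list, -0.09 for the interferon-stimulated genes and 0.35 for the mitochondrially encoded genes. Igf2 was at 23.9 and 13.5 CPM in KO, Mest at 24.9 and 35.9 CPM, Sfrp1 at 23.9 and 30.7 CPM and Penk at 0.438 and 0.405 CPM. Sterol genes had 5 lower members of 25 and a median of -0.81 in KO, against 1 of 25 and -0.32 in WT.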

How the data were processed

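Polyadenylated RNA of 24 samples (6 groups of 4) was sequenced from stranded libraries, per the labels' protocols. The authors deposited a gene table with estimated counts, which are fractional and not normalized, and RPKM values, per the file headers; the RPKM (counts scaled by gene length and library size) serve only to compare levels between genes. The submitters' processing notes name mm10, Bowtie2 2.2.1 and limma 3.18.13 without roles. Which program counted reads, on which annotation and strand, is not given in the sources used here.

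The 4 columns of a group agreed within sampling noise, so the estimated counts were summed and rounded, which leaves 1 library per group. Nothing in the labels says that they came from separate cultures. CPM are counts divided by the library total times its TMM factor over the 6 libraries (edgeR 4.0.16 in R 4.3.3), and log2 CPM have a prior count of 2. Totals of 35025184 to 47092611 counts for the 2 days set the precision, and intervals cover counting error only. Calls are by size (2-fold, 5 CPM in either library), without a test, because 1 library a day has no spread. On simulated counts with sampling noise only, the script was tested with changes larger than 2-fold and recovered nearly all of the genes it had changed. Changes of just 2-fold, changed genes near 5 CPM and differences between cultures were not simulated.

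Coordinates are those of GENCODE M21 (GRCm38), matched by gene ID for 11930 of the 11949 genes. Motifs were searched in RefSeq windows of GRCm38.p6.

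The genes, the 49 lists and the rule for named genes were chosen with earlier results of these data known, so a pattern that the earlier results already held is no independent support. The rule takes the 15 largest differences each way (no predicted names), up to 5 members a list by absolute difference, the markers at 0, and genes named in advance; others are said to be named after their values were seen. Alternatives were other scalings (library totals, DESeq2 1.42.0 size factors, no mitochondrial genes), prior counts, CPM minimums, a 3-fold minimum, leaving out each replicate number, and edgeR and DESeq2 over the 8 columns. TMM factors from the WT pair alone, protein-coding genes only and the subtracted length trend were chosen after seeing the data. Transcript-level values were not used here, and some genes that the rule takes are not reported here.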

Additional observations from a re-analysis of the deposited data

Results flagged for a closer look

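The mitochondrially encoded transcripts went opposite ways in the 2 genotypes between day 36 and day 42. In WT all 13 were lower on day 42, with a median log2 difference of -1.38. In KO 11 of the 13 were higher, with a median of 0.35, a range of -0.08 to 0.75 and 0 of them at least 2-fold. Their summed level on days 33, 36 and 42 was 19483, 25317 and 10739 CPM in WT and 12606, 6308 and 8048 CPM in KO. In both genotypes the sum was thus lower on day 42 than on day 33. The difference between genotypes was not tested, with 1 library per day and genotype. Their share of the counts was 2.38 and 1.1% in WT and 0.694 and 0.889% in KO on days 36 and 42.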

How the results depend on the processing

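The counts of 510 higher and 308 lower genes depend most on the filter and the fold. They were 994 and 474 at 1 CPM, 2085 and 1099 with no filter on CPM, 247 and 195 at 20 CPM, and 234 and 91 at 3-fold. Other settings stayed within 1.5 times: 637 and 242 with library totals, 521 and 298 with DESeq2 size factors, and 493 and 256 for protein-coding genes. Without replicate 1, 2, 3 or 4 the counts were 516 to 528 higher and 305 to 311 lower. Of 48 list medians, 45 kept their sign with library totals; the cGAS-STING, NF-kB and other regional factor lists did not. Of 153 named called genes, 150 stayed at least 2-fold the same way with library totals, and 0 reversed. The same replicate numbers do not pair samples (correlations of deviations -0.0046 to 0.029), and an edgeR fit over the 8 columns gave 535 and 296 genes with the replicate block and 535 and 296 without it. Its 10088 and 10064 genes at an adjusted p below 0.05 (edgeR's quasi-likelihood test) measure sampling noise only. With 1 library per day, no setting shows whether another culture would give these genes, and genes near 5 CPM have the widest intervals.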

Other observations

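Nuclear-retained noncoding RNAs were higher in part. Neat1, the scaffold of paraspeckles, was at 110.3, 63.9 and 309 CPM in WT on days 33, 36 and 42, 4.84-fold higher on day 42 than on day 36 (4.64 to 5.05), and at 108, 102 and 274 CPM in KO. Meg3 and Mirg, maternally expressed RNAs of the Dlk1 and Dio3 cluster, were at 317 and 592 CPM and at 13.6 and 24.6 CPM, both inside 2-fold, while Rian of the same cluster was at 438 and 404 CPM.

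Genes of neural or vascular biology differed in both directions. The microtubule protein gene Map2 was 4.11-fold higher (3.74 to 4.53) and the intermediate filament gene Nes, at 169, 319 and 111 CPM, was 2.88-fold lower than on day 36 (2.78 to 2.98). The endothelin receptor gene Ednra was 4.31-fold higher (3.72 to 5.01), and Nppb, which encodes a natriuretic peptide, was 4.83-fold lower (3.92 to 5.99). Of the cartilage and tendon genes, Sox5, Sox6 and Tnmd were higher, at 5.16, 7.78 and 13.9 CPM on day 42, whereas the bone regulator Runx2 was at 33.1 and 28.4 CPM. Lysosomal hydrolases held 0 called genes of 32, with a median of -0.17, and fatty acid synthesis 0 of 15, with a median of -0.22. Over all genes 6.85% were called. Of 54 ribosomal protein genes, 24 passed 5 CPM and Rplp1 alone was called lower, against 2.58% over all genes. Reads of ribosomal protein genes are shared with many pseudogenes, so these values are uncertain.

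The next tested genes on either side were looked up for the 509 higher and 295 lower genes that have a position outside mitochondrial DNA. Of 1015 neighbouring tested genes of the higher genes 101 were themselves higher (9.95%, against 4.27% of all), and of 588 neighbours of the lower genes 55 were lower (9.35%, against 2.58%), as a description without a test.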
